A study of Drosophila melanogaster with 7 samples.

Results

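Gypsy elements are LTR retrotransposons, here examined by the entries of class LTR and family Gypsy in a table of repeat counts from Drosophila melanogaster embryos. The rule took 106 entries out of 9213 repeat entries, in a table of 26966 genes and repeats. Of these, 50 are internal parts, 51 are LTRs, and 5 carry a name that gives no part (CIRCE, DM412, DMLTR5, Gypsy_DS and TLD2). For 46 elements the table holds both an internal entry and an LTR entry, and these pairs were compared within each library.

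Nascent RNA was measured by Gro-seq, in which engaged RNA polymerases extend their transcripts in isolated nuclei with a biotinylated nucleotide and the labelled RNA is sequenced. All embryos were of cycle 14, the stage of zygotic genome activation, and were aged at 25 °C. The 3 ctr libraries, labelled wild type, came from a cross coded T180xNI746. The 4 TM libraries, labelled triple mutant, came from a cross coded NI762xNI746. By the study's methods, TM mothers lacked Su(var)3-9 (homozygous knockout) and carried shRNAs against dSetDB1 and G9a, driven in the germline late in oogenesis by mat-tub-Gal4, so that all 3 methyltransferases of histone H3 lysine 9 (H3K9) were targeted. The parent NI746 is shared by both crosses, and the labels do not spell out its genotype. By the study's methods, males of the triple mutant cross were homozygous Su(var)3-9 knockouts that carried mat-tub-Gal4. If NI746 is that male parent, ctr mothers also had the driver and a Su(var)3-9 knockout copy, which the labels do not settle. Because the mothers differed in stock as well as in genotype, a difference in the number or place of Gypsy insertions between stocks and an effect of the lost enzymes cannot be told apart. The libraries are bulk, so fewer nuclei transcribing an element and less RNA per nucleus cannot be told apart either.

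A Gypsy element is copied through RNA. Its 2 long terminal repeats (LTRs) flank an internal part with the gag and pol genes, and some elements also carry env, which encodes an envelope protein like that of retroviruses. Transcription starts in the 5′ LTR and ends in the 3′ LTR, and a host tRNA, paired to the primer binding site just inside the 5′ LTR, primes reverse transcription. An internal entry and an LTR entry can therefore draw on different copies, since recombination between the 2 LTRs of a copy leaves a solo LTR with no internal part. In the germline and the somatic follicle cells of the fly ovary these elements are known targets of piRNAs, and H3K9 methylation marks many of their copies.

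The primer binding site sorts the elements into families, and some of the sites are shown because the internal and LTR entries of these families are compared below. They were read from full-length copies in the reference genome (RefSeq annotation of dm6), as 30 bases with the 18 bases of the site in capitals and the 12 bases before it in lower case. In micropia and invader4, where no site was assigned, the capitals are only the 18 bases searched that came closest to a tRNA 3′ end. The lower case is the end of the 5′ LTR, except that in Stalker2, micropia and invader4 its last 7 bases lie beyond the LTR end that was found. A site was assigned to a tRNA where at least 9 bases in a row from its start were complementary to a tRNA 3′ end with its added CCA.
DM176: tttatttgcaatTGGCGCAGCCGGTAGGAT
DM297: caacaatattacTGGCGCAGTCGGTAGGAT
Tirant: cacggacgtaacTGGCGCAGCCGGTAGGAT
Quasimodo: cgaagttgtaatTGGCGCAGCCGGTAGGAT
Idefix: caagtatttaatTGGCGCAGCCGGTAGGAT
gypsy5: tcactcgttaatTGGCGCAGTCGGAAACTG
blood: tggtttattacaTGGCGACCGTGACAGGAC
Stalker4: aaaacaattacaTGGCGACCGTGACAGGAC
Stalker2: ttacatattacaTGGCGACCGTGACTTGGT
gtwin: gaacacattaatTGGCGCCCAACGTGCATT
micropia: cgacatcagaagTGGGATCTGTGCCACACC
invader4: cgacatcagaagTGGGATCGCCTTCGCCAC
The first 6 match tRNA-Ser, over 18 bases in each but gypsy5, where the match covers 12. The sites of blood and Stalker4 match tRNA-Arg over 18 bases and that of Stalker2 over 13. The site of gtwin matches tRNA-Lys over 14 bases. The windows of micropia and invader4 begin with the same bases and match no tRNA 3′ end over 9 bases. The printed windows lie at chr3L:10067160-10067189 (DM176), chr3R:27876156-27876185 (DM297), chr2L:8731056-8731085 (Tirant), chr2L:15719426-15719455 (Quasimodo), chrX:19444193-19444222 (Idefix), chrX:11201401-11201430 (gypsy5), chr2L:19347930-19347959 (blood), chr3R:28770881-28770910 (Stalker4), chrX:11318959-11318988 (Stalker2), chrX:1634928-1634957 (gtwin), chr3R:7354703-7354732 (micropia) and chr4:913110-913139 (invader4). The windows of DM297, Quasimodo and blood are on the plus strand and the others on the minus strand, and all lie across an LTR and the start of an internal part of an annotated mobile element.

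The libraries held between 29391697 and 35131766 estimated counts on genes and repeats. Gypsy entries took 1.56%, 1.46% and 1.47% of the counts in ctr replicates 1 to 3 and 1.77%, 1.86%, 1.80% and 2.07% in TM replicates 1 to 4, so every TM library lay above every ctr library. Of the targeted genes, Su(var)3-9 ran from 135 to 156 CPM (counts scaled to a common library size) in ctr and from 119 to 131 in TM (edgeR adjusted p = 0.20), and neither egg (dSetDB1) nor G9a differed past the threshold. These levels do not check the labels, since an shRNA acts on RNA already made and the deleted part of Su(var)3-9 is not given in the sources used here. The 10 markers of cycle 14 summed to between 4301 and 5125 CPM in ctr and between 3155 and 6937 CPM in TM. Among them, slam was at 1455, 1256 and 1777 CPM in ctr and at 3202, 2095, 2008 and 846 CPM in TM replicates 1 to 4. In TM, bnk, nullo and Sry-alpha also fell at each step in that order, while eve, ftz, hry, run, Kr and kni did not. A difference between libraries in time within cycle 14 was not tested. Markers of later muscle, of neurons and of follicle cells summed to at most 156, 288 and 92.8 CPM in any library, and no marker was at 0 in all libraries. The neuron marker Syt1 was at 4.83, 5.53 and 5.74 CPM in ctr and at 21.7, 25.7, 29.6 and 21.5 CPM in TM. For the muscle marker up all TM libraries also lay above all ctr libraries, for Tm1 they lay below, and the other markers of these lists overlapped. The part of these markers in the results was not tested.

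Transcription of Gypsy elements was higher in TM embryos for a large share of the family. Of the 104 entries that averaged 10 or more counts a library, 44 were called higher, 3 were called lower and 57 did not pass the threshold (edgeR quasi-likelihood test, Benjamini-Hochberg adjusted p under 0.05 over all 17281 features). Over all features the shares called were 2.82% higher and 3.08% lower, and over the 98 other transposable element entries they were 29.6% and 2.04%. The median log2 fold change of the tested Gypsy entries was 0.50, against 0.01 over all features, 0.23 over the other transposable element entries, 0.28 over 16 Pao entries and 0.08 over 10 Copia entries. In 55 Gypsy entries every TM library lay above every ctr library and in 3 every TM library lay below, against 9.04% and 9.95% of all features. The rises were mostly modest, as 12 entries were called at least 2-fold higher. Leaving out ctr replicate 2 lowered the count of called rises to 30, the fewest for any left-out library. The remaining 2 entries, Gypsy3_LTR and OSVALDO_LTR, were under the filter, and OSVALDO_LTR had no counts.

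Internal parts and LTRs rose in like numbers. Among internal entries 20 of 50 were called higher and 2 lower, with a median log2 fold change of 0.47. Among LTR entries 22 of 49 tested were called higher and 1 lower, with a median of 0.50. Over the 44 pairs with both entries tested, both were called higher in 8, the LTR entry alone was called in 13, the internal entry alone in 11 and neither in 12. These counts do not test whether the 2 parts of an element differed, which is given below.

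The element accord, which carries an env gene, had the largest called rise, and both of its parts moved. ACCORD_LTR stood at 14.1, 11.6 and 15.4 CPM in ctr and at 41.6, 34.9, 27.3 and 44.9 CPM in TM. The groups did not overlap, and the log2 fold change was 1.44 ± 0.18 (SE, edgeR adjusted p = 0.00022). ACCORD_I-int, the internal part, was at 68.7, 70.6 and 71.9 CPM in ctr and at 126, 162, 161 and 170 CPM in TM, a log2 fold change of 1.14 ± 0.10 (edgeR adjusted p = 1.1e-05). The related entry ACCORD2_I-int rose from 123 ± 16.2 CPM (SD, n = 3) to 251 ± 30.6 CPM (SD, n = 4), with all TM libraries above all ctr libraries (edgeR adjusted p = 4.6e-05). Its LTR entry, ACCORD2_LTR, had 6.01 CPM on average in ctr and 10.3 in TM with overlapping groups, and was not called (edgeR adjusted p = 0.19).

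Several of the elements with the largest internal rises bear only numbered names. Gypsy2-I_DM was at 220, 200 and 199 CPM in ctr and at 403, 419, 491 and 626 CPM in TM, a log2 fold change of 1.23 ± 0.13 (edgeR adjusted p = 7.1e-05). Its LTR entry, Gypsy2-LTR_DM, also rose, by 0.95 ± 0.13 on the log2 scale (edgeR adjusted p = 0.00031). The separate entry Gypsy2_I-int differed by a log2 fold change of 0.25, which did not pass the threshold, so entries with like names did not share a call.

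Gypsy6_I-int was at 73.7, 56.0 and 69.5 CPM in ctr and at 135, 139, 166 and 258 CPM in TM. The groups did not overlap, but TM replicate 4 was far above the other TM libraries. The log2 fold change was 1.39 ± 0.26 (edgeR adjusted p = 0.030) and 1.14 without TM replicate 4 (edgeR adjusted p = 1.3e-05). The call was lost when any 1 ctr library (adjusted p = 0.085, 0.090 and 0.095 without ctr replicates 1, 2 and 3) or TM replicate 3 (adjusted p = 0.058) was left out. Invader6_I-int, among the most abundant Gypsy entries in TM, rose more evenly, from 655, 530 and 632 CPM in ctr to 1182, 1175, 1371 and 1355 CPM in TM. Its log2 fold change was 1.07 ± 0.10 (edgeR adjusted p = 1.2e-05).

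For other elements the LTR entry led. ROVER-LTR_DM, from the env-bearing element rover, was at 17.2, 16.4 and 15.5 CPM in ctr and at 36.3, 35.3, 38.6 and 63.9 CPM in TM. Its log2 fold change was 1.41 ± 0.19 (edgeR adjusted p = 0.00040), and it was 1.17 without the high TM replicate 4 (edgeR adjusted p = 0.00016). The internal entry ROVER-I_DM overlapped between groups, at 60.8 ± 5.38 CPM in ctr (SD, n = 3) and 93.6 ± 31.9 CPM in TM (SD, n = 4), and was not called (edgeR adjusted p = 0.26). It passed the threshold without TM replicate 1 (edgeR adjusted p = 0.0091).

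TABOR_LTR was at 32.1, 31.6 and 31.5 CPM in ctr and at 72.0, 62.7, 54.2 and 73.9 CPM in TM, a log2 fold change of 1.05 ± 0.12 (edgeR adjusted p = 6.0e-05). The internal entry of the same element, TABOR_I-int, rose by 0.43 ± 0.10 (edgeR adjusted p = 0.018). That smaller call was lost without any 1 of the ctr libraries (adjusted p = 0.061, 0.073 and 0.095 without replicates 1, 2 and 3). Both parts of Stalker4, an element of the group with a tRNA-Arg site, were called. STALKER4_LTR went from 46.0, 42.5 and 46.3 CPM in ctr to 78.3, 84.2, 79.1 and 131 CPM in TM, a log2 fold change of 1.05 ± 0.17 (edgeR adjusted p = 0.0038), or 0.84 without TM replicate 4 (adjusted p = 3.8e-05). STALKER4_I-int rose by 0.62 ± 0.13 (edgeR adjusted p = 0.0085), a call that was lost without ctr replicate 3 (adjusted p = 0.063). TLD2, a low entry with no part in its name, rose from 10.7, 13.8 and 11.6 CPM in ctr to 20.3, 26.2, 23.2 and 29.01 CPM in TM (edgeR adjusted p = 0.0028).

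**Figure D1:**
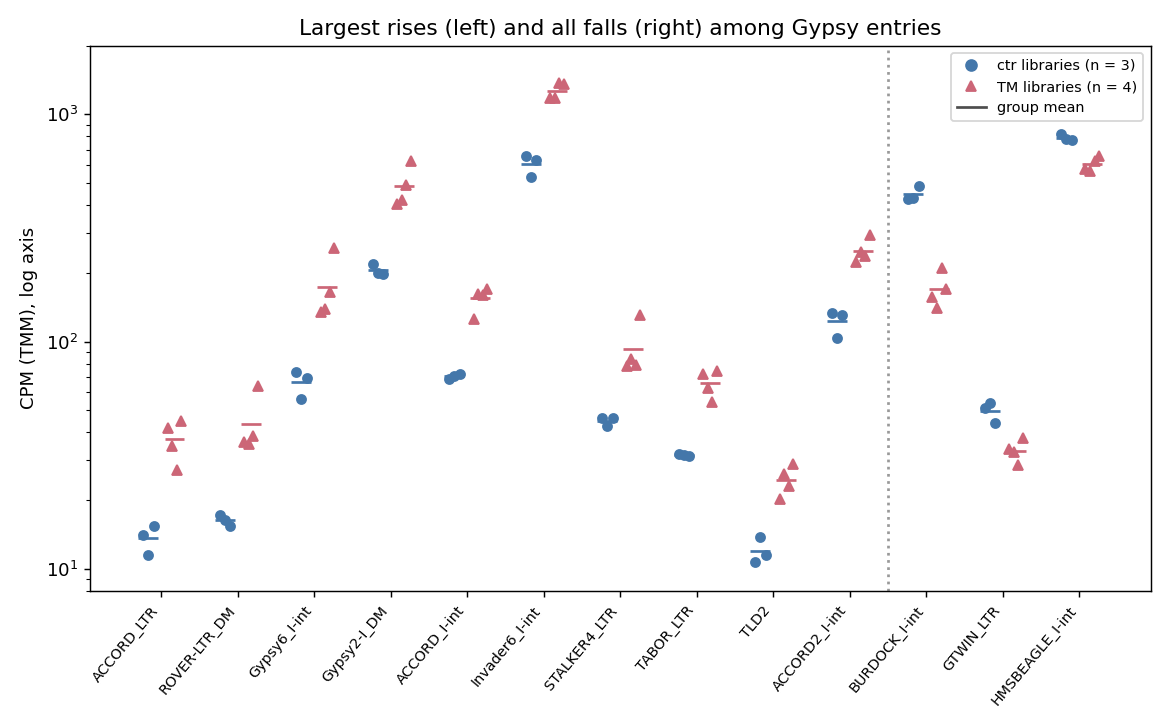
CPM on a log axis of the 10 Gypsy entries with the largest called rises and the 3 called falls, with 1 point for each of the 3 ctr and 4 TM libraries and a line at each group mean. In all 13 entries the ctr and TM libraries do not overlap, and in ROVER-LTR_DM, Gypsy6_I-int and STALKER4_LTR TM replicate 4 stands above the other TM libraries.

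The 3 called falls came from elements whose primer binding site matches tRNA-Lys, over 10 bases in Burdock, 18 in HMS-Beagle and 14 in gtwin. The minimum of 9 bases for a match was set after the values were seen, and no site was read for 32 elements. Burdock is a relative of gypsy known to lack a working env gene. BURDOCK_I-int was at 424, 428 and 485 CPM in ctr and at 158, 141, 210 and 171 CPM in TM. The groups lay far apart, and the log2 fold change of -1.39 ± 0.12 (edgeR adjusted p = 5.4e-06) made it the only Gypsy entry called at least 2-fold lower. Its LTR entry did not follow. BURDOCK_LTR was at 40.2, 37.1 and 43.0 CPM in ctr and at 36.4, 43.1, 37.6 and 28.5 CPM in TM, with overlapping groups (log2 fold change -0.14 ± 0.14, edgeR adjusted p = 0.67).

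HMS-Beagle, another relative known to lack a working env gene, is represented by its internal part alone. HMSBEAGLE_I-int was at 816, 779 and 771 CPM in ctr and at 576, 565, 621 and 654 CPM in TM, a log2 fold change of -0.38 ± 0.08 (edgeR adjusted p = 0.012). All TM libraries were below all ctr libraries, but the call was lost without ctr replicate 1 (adjusted p = 0.084) or TM replicate 2 (adjusted p = 0.061). The fall in gtwin, an env-bearing element, was in the LTR. GTWIN_LTR was at 50.8, 53.6 and 43.8 CPM in ctr and at 33.8, 32.5, 28.5 and 37.6 CPM in TM, a log2 fold change of -0.58 ± 0.12 (edgeR adjusted p = 0.011). This call was lost without ctr replicate 1 (adjusted p = 0.060) or ctr replicate 2 (adjusted p = 0.067). The internal entry GTWIN_I-int overlapped between the groups and was not called, at 134 ± 12.4 CPM in ctr (SD, n = 3) and 152 ± 21.6 CPM in TM (SD, n = 4, edgeR adjusted p = 0.41).

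Of the most abundant Gypsy entries in ctr, 1 of 5 rose. The 5 most abundant Gypsy entries in ctr were Invader1_LTR (936 CPM), DM297_I-int (881 CPM), BLASTOPIA_I-int (847 CPM), HMSBEAGLE_I-int (788 CPM) and BLOOD_I-int (666 CPM), all as group means that are not scaled to length. The last of these was called higher, from 663, 620 and 716 CPM in ctr to 1201, 1017, 1045 and 963 CPM in TM (log2 fold change 0.67 ± 0.10, edgeR adjusted p = 0.00059). Its element, blood, belongs to the mdg1 lineage. The log2 fold changes of the others that were not called were 0.18 ± 0.09 for Invader1_LTR, 0.22 ± 0.11 for DM297_I-int and -0.12 ± 0.08 for BLASTOPIA_I-int, and their groups overlapped.

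Whether the internal part and the LTR of an element changed by different amounts was tested on the log2 ratio of the 2 entries within each library. This ratio is free of library scaling, but its level depends on the lengths of the entries, so only its change between groups was read. Of the 44 Gypsy pairs tested, the ratio fell in 5 and rose in 4 (limma, adjusted over all 57 pairs of class LTR). Over these 57 pairs, which include the 44, 10.5% were called with the internal part down relative to the LTR and 7.02% with it up. Of the 13 other pairs, 1 was called with the internal part down and 0 with it up. The number called depended on how limma modelled the variance, with 14 Gypsy pairs called without its trend and 17 with a trend on the level of the LTR entry, and the 9 pairs were among those called in both. Across the 44 pairs the log2 fold changes of the 2 parts had a Pearson r of 0.43 and a Spearman rho of 0.40, as a description of entries that share libraries.

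Among the pairs past the threshold, the ratio fell most in BURDOCK, where log2 internal over LTR was 3.40, 3.53 and 3.49 in ctr and 2.11, 1.71, 2.48 and 2.58 in TM. The change was -1.25 ± 0.21 (SE, limma adjusted p = 0.0065). In ROVER_DM it fell from 1.81, 1.76 and 2.10 to 0.73, 1.29, 1.23 and 1.10, a change of -0.80 ± 0.16 (limma adjusted p = 0.0070). Bica showed a fall of the same size, from 2.24, 2.45 and 2.12 to 1.31, 1.42, 1.71 and 1.43 (change -0.80 ± 0.13, limma adjusted p = 0.0065). In that element the LTR entry rose from 26.1 ± 3.12 CPM (SD, n = 3) to 52.9 ± 2.64 CPM (SD, n = 4, edgeR adjusted p = 8.1e-05). The internal entry Bica_I-int went from 125 ± 0.84 CPM to 147 ± 13.5 CPM and was not called (edgeR adjusted p = 0.15). TABOR changed by -0.61 ± 0.12 (limma adjusted p = 0.0065). QUASIMODO changed by -0.45 ± 0.13 (limma adjusted p = 0.046), and this call was lost whichever library was left out (adjusted p from 0.052 to 0.11). So a fall of the ratio meant a fallen internal part in BURDOCK alone, and in ROVER_DM, Bica, TABOR and QUASIMODO an LTR entry that was called higher.

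In the other direction, the largest rise among the pairs past the threshold was that of Gypsy6, from 2.74, 2.61 and 2.32 in ctr to 3.35, 3.22, 3.43 and 3.69 in TM (change 0.86 ± 0.16, limma adjusted p = 0.0065). In Invader6 it rose from 3.42, 3.38 and 3.11 to 3.86, 3.94, 4.20 and 4.32 (change 0.78 ± 0.17, limma adjusted p = 0.010). The LTR entries of both elements were not called. Gypsy6_LTR was at 11.3 ± 2.39 CPM in ctr (SD, n = 3) and 15.8 ± 2.94 CPM in TM (SD, n = 4), and Invader6_LTR was at 61.7 ± 11.3 CPM and 75.0 ± 5.73 CPM. In GTWIN the rise of 0.76 ± 0.15 (limma adjusted p = 0.0070) came with the fall of its LTR entry. Invader1 changed by 0.45 ± 0.09 (limma adjusted p = 0.0065), with the internal entry called higher (log2 fold change 0.64 ± 0.10) and the abundant LTR entry not called.

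**Figure D2:**
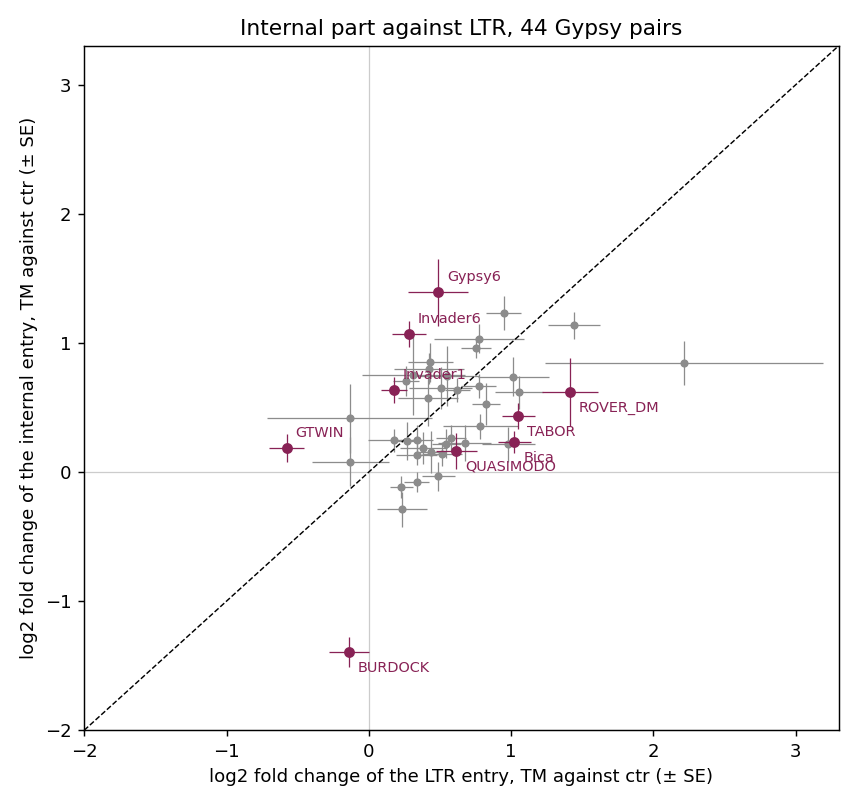
Log2 fold change (TM against ctr) of the internal entry against that of the LTR entry for 44 Gypsy pairs, with bars of 1 SE and a dashed line of equal change. The 9 named pairs in dark red are those whose ratio passed the threshold, 5 below the line and 4 above it, with BURDOCK alone far below 0 on the internal axis.

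**Figure D3:**
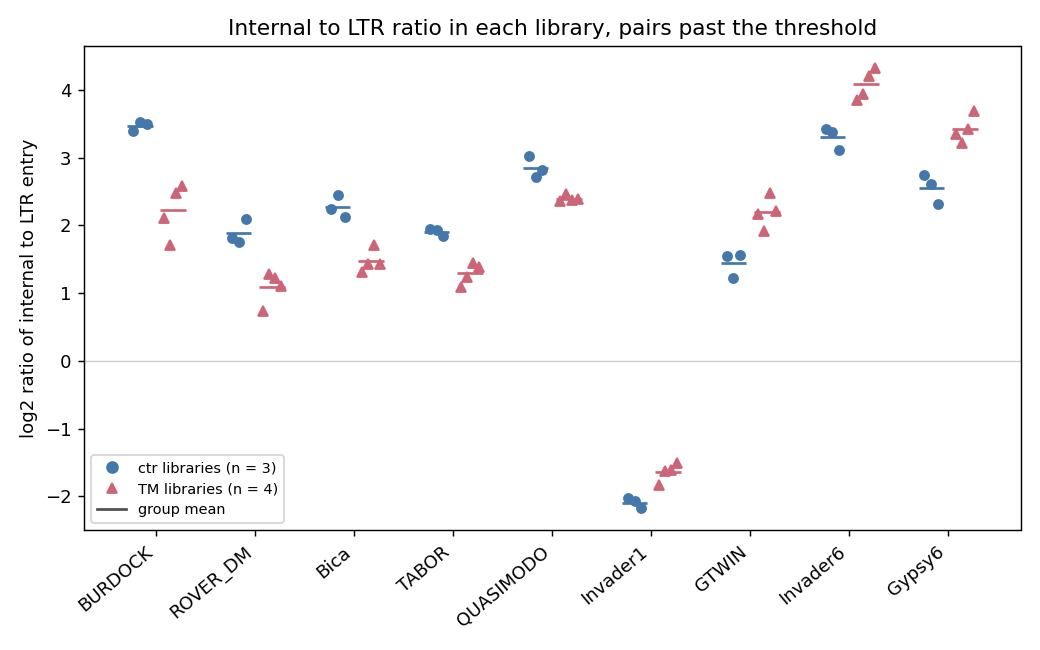
Log2 ratio of the internal to the LTR entry in each of the 3 ctr and 4 TM libraries, for the 9 Gypsy pairs past the threshold, with lines at the group means. The ctr and TM libraries do not overlap in any of the 9, and the change runs from -1.25 in BURDOCK to 0.86 in Gypsy6.

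Of the listed elements known to carry an env gene, 14 were in the table. Their LTR entries were called higher in 8 of 14 and lower in 1, with a median log2 fold change of 0.53. Their internal entries were called higher in 2 of 14, ACCORD_I-int and TABOR_I-int, with a median of 0.22. The site of Tabor matched tRNA-Arg over 14 bases, whereas the other listed elements with a site read matched tRNA-Ser or tRNA-Lys. The ratio of the 2 parts was called lower in 3 of these 14 pairs (ROVER_DM, TABOR and QUASIMODO) and higher in 1 (GTWIN), and 10 were not called. Tirant, with its site of the tRNA-Ser kind, was among those not called. TIRANT_LTR was at 12.5, 16.9 and 20.03 CPM in ctr and at 39.0, 27.8, 36.1 and 27.2 CPM in TM (log2 fold change 0.98 ± 0.19, edgeR adjusted p = 0.0054). TIRANT_I-int overlapped between the groups (log2 fold change 0.21 ± 0.14, edgeR adjusted p = 0.45), and the change of the ratio, -0.79 ± 0.27, did not pass the threshold (limma adjusted p = 0.058). For the element gypsy itself, Gypsy_LTR was called higher by 0.51 ± 0.14 (edgeR adjusted p = 0.043) and Gypsy_I-int, at 0.14 ± 0.09, was not called (edgeR adjusted p = 0.46). The change of its ratio, -0.38 ± 0.12, did not pass the threshold either (limma adjusted p = 0.052).

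The 3 relatives known to lack a working env gene did not move together. The internal parts of Burdock and HMS-Beagle fell as given above, whereas TRANSPAC_I-int rose from 366, 369 and 343 CPM in ctr to 623, 512, 598 and 500 CPM in TM (log2 fold change 0.64 ± 0.10, edgeR adjusted p = 0.00082). TRANSPAC_LTR rose by a like amount, 0.62 ± 0.09 (edgeR adjusted p = 0.00047). Among the elements listed as mdg1 lineage (DM412, mdg1, Stalker2 and blood), 3 of 7 entries were called higher. Stalker4, whose printed site equals that of blood, was not on this list, and both of its entries were called higher. Of those listed as mdg3 lineage (mdg3, micropia and blastopia), 2 of 6 entries were called higher. The 13 elements with numbered gypsy names outside these lists had 6 of 11 internal entries and 3 of 12 LTR entries called higher, with medians of 0.65 and 0.53. The 6 Invader elements had 3 of 6 internal and 2 of 6 LTR entries called higher, with medians of 0.69 and 0.37.

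Grouped by the primer binding sites shown above, the 7 elements with a tRNA-Ser site (DM176, DM297, gypsy5, Idefix, Quasimodo, rover and Tirant) had 5 of 7 LTR entries called higher, with a median log2 fold change of 0.58. None of their 7 internal entries was called by edgeR, at a median of 0.22, while 1 had an unadjusted p under 0.05 and 1 was called by DESeq2. The elements with a tRNA-Arg site had 3 of 5 internal and 4 of 5 LTR entries called higher, with medians of 0.43 and 0.77. Those with a tRNA-Lys site had 1 of 6 internal entries called higher and 2 lower, and 1 of 5 LTR entries called higher and 1 lower, with medians of 0.16 and 0.18. The tRNA-Lys match was short in Burdock (10 bases) and gypsy4 (9 bases). No site was read for 32 elements, with 21 of 51 tested entries called higher and 0 lower. In 8 more no tRNA was assigned, with 7 of 15 tested entries called higher and 0 lower. These are counts of entries within a group and the groups were not tested against each other.

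The copies in the reference genome gave a further description. Under the names matched to table entries, 42 elements had 891 annotated copies, from 3 to 88 an element. The 2 LTRs of a copy are identical when it inserts, and their identity falls with age. Of the elements with an internal entry tested, 19 had a median LTR identity of 100% over the copies with 2 LTRs. Their internal entries had a median log2 fold change of 0.21, with 5 called higher and 2 lower. In 11 elements with a median identity under 100%, the median log2 fold change was 0.64, with 7 called higher. In 4 of these 11 (gypsy6, invader6, accord2 and gypsy2), and in 2 of the 19 (accord and gypsy5), the identity is that of a single copy with 2 LTRs. In 8 elements where no copy with 2 LTRs was found, the median log2 fold change was 0.66, with 2 called higher. Over the 30 elements with such copies, Spearman's rho of median LTR identity with the log2 fold change of the internal entry was -0.55, and over 38 elements that of copy number was -0.37. These points share the 7 libraries, many identities are tied at 100%, and the reference copies need not be those of the crossed stocks. There were exceptions, as accord (3 copies, identity 100% in its 1 copy with 2 LTRs) was among the largest rises.

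**Figure D4:**
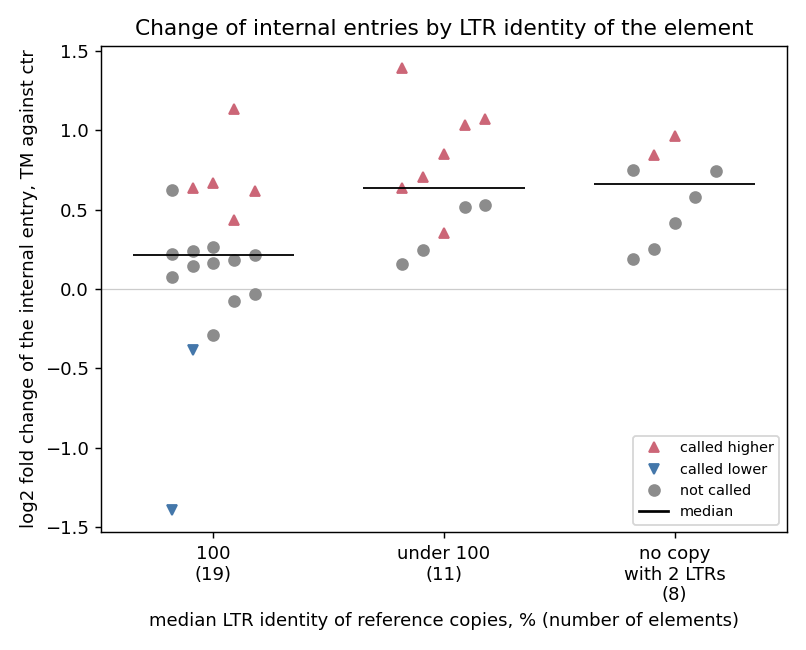
Log2 fold change (TM against ctr) of the internal entry of each element, by the median identity of the LTR pair of its copies in the reference genome: 100% (19 elements), under 100% (11) and no copy with 2 LTRs found (8). Lines mark the medians, at 0.21, 0.64 and 0.66, and both called falls are in the first set.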

How the data were processed

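The deposited repeat table holds estimated counts (expected counts, whole numbers in the file) that the authors made from trimmed Gro-seq reads with TEtranscripts in the noncoding-RNA-seq module of snakePipes on dm6. TEtranscripts divides a read with several mapped places between related copies, so entries with similar sequence are uncertain, and the strand setting for repeats is not given in the sources used here. A second deposited table, of gene counts, was not used.

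Genes and repeats averaging 10 or more counts a library were fitted together with edgeR 4.0.16 (R 4.3.3, TMM, robust quasi-likelihood test, condition alone), with Benjamini-Hochberg adjustment over all features and a threshold of 0.05. CPM use library sizes corrected by TMM. An SE is the log2 fold change over the square root of F. The ratio of internal to LTR entry (log2 CPM, prior count 2) was tested with limma 3.58.1 (trend on the mean ratio, robust). The depth was 29391697 to 35131766 counts per library. Replicates are called biological by the study, and no 2 libraries agreed within sampling noise.

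Named entries are the 10 largest called rises, all called falls (up to 10), their counterparts, the 5 highest in ctr and both entries of the 5 largest called ratio changes. Entries named as examples of a list (Tirant, gypsy, Transpac, Gypsy2_I-int and the parts of QUASIMODO, TABOR, GTWIN and Invader1) were picked after their values were seen, as was the minimum of 9 bases for a tRNA match. The members and lists were chosen with earlier results of these data known. LTR pairs were found where 20 bases at the start of a copy recurred exactly near its end, so pairs of diverged LTRs could be missed. Short copies were not searched. Primer binding windows were taken from copies of up to 9000 bases. Alternatives were DESeq2 1.42.0, other size factors and filters, adjustment over repeats alone, a replicate block and leaving out each library. The fits were also run on counts simulated with the dispersions of these libraries. Such counts hold no reads shared between entries, so they do not check the effect of such reads.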

Additional observations from a re-analysis of the deposited data

Results flagged for a closer look

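In the 4 TM libraries, 3 of 39 values tested had 1 library far from the others, where chance gives about 1.95. In each it was TM replicate 4, the highest. For ROVER-LTR_DM its gap to the next library took a share of 0.883 of the range of the TM libraries, for STALKER4_LTR a share of 0.888 and for TABOR_I-int, at 193 CPM against 148 to 154, a share of 0.865. All 3 entries were still called higher without TM replicate 4, as given above for the LTR entries and with a log2 fold change of 0.33 (edgeR adjusted p = 0.013) for TABOR_I-int. Replicate 4 also had the highest Gypsy share of counts, 2.07%. It had the lowest level of the cycle 14 marker slam among the TM libraries, 846 CPM, and a link between these was not tested. Without it the median log2 fold change of the tested Gypsy entries was 0.43, against 0.50 with it, and 43 entries were called higher and 3 lower.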

How the results depend on the processing

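The count of Gypsy entries called higher (44) ran from 37 to 50 over the tools, scalings, filters and adjustments tried, and from 30 to 48 with a library left out. DESeq2 called 50, among them the 44. The count called lower stayed at 3, except with a library left out, where it ran from 1 to 3 (1 without ctr replicate 1, 2 without ctr replicate 2 or TM replicate 2). The count of unequal pairs (9) was 14 in limma without trend and 17 with a trend on the level of the LTR entry, an alternative chosen after seeing the data, and ran from 8 to 10 with a library left out. No named entry or called pair changed direction under any alternative run. With library totals alone the median of all features moved to -0.05 and the share of higher calls over all features from 47.8% to 35.2%, while 38 Gypsy entries were called higher and 3 lower. Of the named entries, TABOR_I-int was lost with library totals (adjusted p = 0.057), and Gypsy6_I-int when features with as little as 1 count in all were kept (adjusted p = 0.068) or adjustment over repeats alone (adjusted p = 0.054), while ROVER-I_DM was gained in DESeq2 (adjusted p = 0.025). Replicate numbers did not pair the libraries, since deviations of same-numbered ctr and TM libraries correlated at 0.01, -0.03 and 0.04. With the replicate block, 45 entries were called higher, 3 lower and 10 pairs unequal, and the QUASIMODO pair was lost (adjusted p = 0.23). Entries at a few CPM are limited by depth, as for Gypsy7_LTR, whose log2 fold change of 2.21 ± 0.98 was not called (edgeR adjusted p = 0.25).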
